A study of Mus musculus with 15 samples.

Results

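Livers of mice given quercetin by gavage were set against livers of mice given kaempferol, with 3 libraries for each flavonol out of 15 in the series. The libraries were chosen by the compound and dose in their labels and are called here quercetin libraries 2, 5 and 8 and kaempferol libraries 3, 5 and 8, after the numbers in their titles. All mice were wild type (WT) and were fed for 6 weeks. The quercetin mice received 200 mg/kg/day and the kaempferol mice 100 mg/kg/day, each on a diet labelled only as high-fat. The model group, given here only for orientation, ate a diet of standard feed with added lard (10%), egg yolk powder (10%), cholesterol (1%) and sodium cholate (0.2%) and has 3 libraries, numbered 1, 2 and 5. Because the doses differ, compound and dose cannot be told apart in any value that follows. The labels give no sex, strain, age, hour of collection or fasting state. They do not say that libraries of one group came from separate mice, so the p-values measure only the spread between libraries.

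Quercetin and kaempferol are plant flavonols with the same ring system, and quercetin carries a hydroxyl group on its B ring that kaempferol lacks. In liver, flavonols are mostly methylated, glucuronidated and sulfated and are then exported into bile and blood. The liver also runs a circadian clock, in which the activators ARNTL and CLOCK (or its relative NPAS2) switch on genes of the repressors PER, CRY and REV-ERB, and many genes of lipid and bile acid metabolism vary with the hour of day.

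Library totals were 16.2 to 16.8 M expected counts (M for 1e6) with quercetin and 16.9 to 17.4 M with kaempferol. On log2 CPM (counts scaled to a common library total of 1e6) of the 6 libraries, the first principal component held 40.6% of the variance and had the 3 quercetin libraries at -29.1, -29.1 and -15.8 and the 3 kaempferol libraries at 25.3, 21.8 and 26.9. On the second component (22.7%), quercetin library 8 and kaempferol library 5 were low, at -26.6 and -24.1, and kaempferol library 8 was high, at 23.4. Hepatocyte marker transcripts summed to between 99549 and 113110 CPM with quercetin and between 75768 and 101689 CPM with kaempferol, and 0 of these 12 markers passed the edgeR test described below (2 at an unadjusted p under 0.05, and 1 by DESeq2). The adipocyte markers Adipoq, Retn and Plin1 were at 0 counts in all 6 libraries, which in each library allows up to 3 counts. The 4 adipocyte markers tested were present and summed to between 2274 and 3005 CPM with quercetin and between 2004 and 3693 CPM with kaempferol. Of these 4, 0 passed the edgeR test, with log2 fold changes of quercetin over kaempferol from -0.94 to 1.91.

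Of 12658 genes tested, 612 passed edgeR's quasi-likelihood test between quercetin and kaempferol, which is 4.83% of the genes. Here 310 genes were higher with quercetin (2.45%) and 302 were lower (2.39%). A gene passed at a Benjamini-Hochberg adjusted p under 0.05, changes are log2 fold changes ± SE of quercetin over kaempferol, and levels are CPM by library. The count was 359 without quercetin library 2, 335 without quercetin library 5, 285 without kaempferol library 3 and 391 without kaempferol library 8. It was 612 without quercetin library 8 and 706 without kaempferol library 5. Calls of genes near the threshold can thus rest on single libraries. For 2972 genes (23.5%) the CPM of the quercetin and kaempferol libraries did not overlap, among them 609 of the 612 that passed. For a gene that passed, a lack of overlap thus adds little to the call. The median log2 fold change over all genes was -0.02, and the median SE was 0.16. Against the same 3 model libraries, 990 genes (7.82%) passed with quercetin and 5 (0.0395%) with kaempferol. These comparisons share the model libraries with each other and the flavonol libraries with the direct one, so their values are only given side by side.

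**Figure D1:**
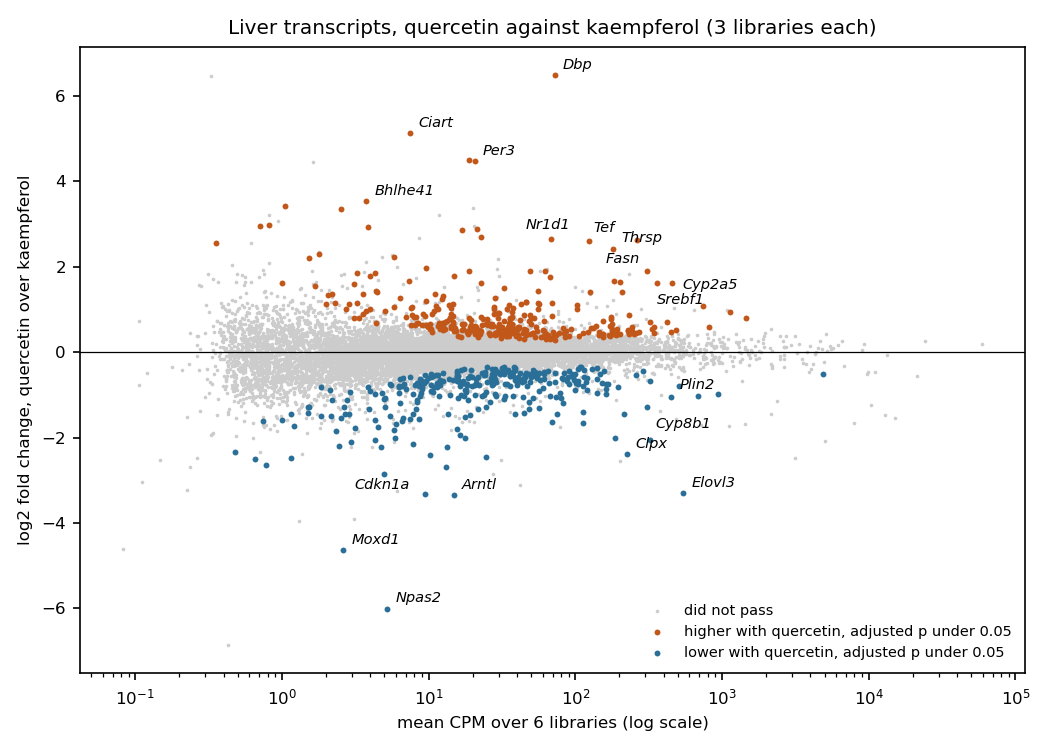
Each point is 1 of the 12658 genes tested, with its mean CPM over the 3 quercetin and 3 kaempferol libraries on a log axis and its log2 fold change, quercetin over kaempferol, on the vertical axis. Orange points are the 310 genes higher with quercetin and blue points the 302 lower. Among the genes that passed, clock genes stand at both ends, with Dbp at 6.48 and Npas2 at -6.01.

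Among the genes named here, clock genes held both the largest increase and the largest decrease with quercetin. Of 18 core clock genes, 8 were higher with quercetin, 4 were lower and 6 did not pass, against 4.83% of all genes passing in either direction. Of 15 clock output genes, 7 were higher, 4 were lower and 4 did not pass. When 1 library was left out, 11 to 13 core genes and 7 to 12 output genes passed, the fewest output genes without quercetin library 5 (4 higher, 3 lower), and 7 output genes passed in a fit of the 6 libraries alone. The median log2 fold change was 0.51 over the core clock list and 0.74 over the output list, against -0.02 over all genes. The activators Arntl, Npas2 and Clock were lower with quercetin, most repressors were higher, and of the D-box factors Dbp, Tef and Hlf were higher and Nfil3 was lower. These lists were drawn up with earlier results of this series known. The labels give no hour of collection, and its part in these values was not tested.

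Some of these genes hold the letters of clock motifs just before their start sites, and part of those stretches are shown because the genes differed between the flavonols. In the 250 bases before each RefSeq start site (GRCm38.p6), the E-box CACGTG, bound by ARNTL and CLOCK, the D-box TTANGTAA, bound by DBP, TEF, HLF and NFIL3, and the core TAGGTCA of the ROR element, bound by ROR and REV-ERB proteins, were searched on both strands. Of the 23 clock genes that passed, 20 had an entry in the promoter table, and Per2, Bhlhe40 and Wee1 had none. No gene held more than 1 of the 3 motifs. The E-box stood in 5 of these 20, namely Ciart, Bhlhe41, Tef and Tspan4, which were higher, and Cry1, which was lower. Among all genes with a promoter entry, 6.86% had it. The D-box stood in 1 of the 20, Per3, which was higher (2.44% of all genes), and the ROR core stood in 2, Nfil3 and Leo1, which were both lower (2.55% of all genes). A match describes the letters only. The E-box stretches of Cry1, which was lower, and of Tspan4 are not shown, nor is that of another Tef start site. In the stretches below, read 5′ to 3′ on the strand of the gene, capitals mark the motif, which in Nfil3 is the reverse complement of the ROR core.
Ciart, chr3:95882255-95882356, minus strand: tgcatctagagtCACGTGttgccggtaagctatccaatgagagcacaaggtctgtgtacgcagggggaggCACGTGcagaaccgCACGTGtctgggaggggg
Bhlhe41, chr6:145865556-145865585, minus strand: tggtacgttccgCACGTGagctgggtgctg
Tef, chr15:81802534-81802563, plus strand: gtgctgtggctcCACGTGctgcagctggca
Per3, chr4:151044804-151044882, minus strand: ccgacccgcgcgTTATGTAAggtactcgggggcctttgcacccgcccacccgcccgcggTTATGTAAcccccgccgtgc
Nfil3, chr13:52981040-52981063, minus strand: ggcgctcggaacTGACCTActaac
Leo1, chr9:75441449-75441479, plus strand: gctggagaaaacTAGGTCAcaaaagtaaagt

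Among the activators, Arntl (chromosome 7, 113178471 to 113314126) had 3.56, 1.33 and 3.08 CPM with quercetin, against 28.8, 28.6 and 23.6 CPM with kaempferol and 30.9, 27.2 and 27.8 CPM in the model. The quercetin libraries were all low and the kaempferol libraries lay at the level of the model, and the log2 fold change was -3.35 ± 0.278 (edgeR adjusted p = 2.22e-05). Npas2 was nearly absent with quercetin, at 4, 1 and 3 counts, against 170, 187 and 170 counts with kaempferol (log2 fold change -6.01 ± 0.972, edgeR adjusted p = 0.00543). Clock had 18.6, 17.5 and 27.1 CPM with quercetin and 47.2, 40.9 and 46 CPM with kaempferol (log2 fold change -1.09 ± 0.152, edgeR adjusted p = 0.00076). The groups did not overlap for any of these 3 genes.

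Of the repressors, Per3 had 49.3, 42.9 and 26.2 CPM with quercetin and 1.77, 1.91 and 1.65 CPM with kaempferol (log2 fold change 4.47 ± 0.364, edgeR adjusted p = 2.52e-05). Per2 had 31, 61 and 20.3 CPM with quercetin, against 4.43, 3.31 and 7.49 CPM with kaempferol and 31.7, 33.5 and 18.5 CPM in the model. For Per2 it was thus kaempferol that lay away from the model level (log2 fold change of quercetin over kaempferol 2.88 ± 0.497, edgeR adjusted p = 0.00815), although kaempferol over model did not pass (-2.45, edgeR adjusted p = 0.097). Per1 did not pass at 2.96 ± 0.793 (edgeR adjusted p = 0.0611), with 37.4, 50.9 and 19.6 CPM in the quercetin libraries and 2.71, 0.955 and 10 CPM in the kaempferol libraries, and it passed without kaempferol library 8 (0.0354).

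Nr1d1, the gene of the heme-binding repressor REV-ERB alpha, had 151, 86.8 and 113 CPM with quercetin and 17.9, 14.1 and 24.1 CPM with kaempferol. The groups did not overlap (log2 fold change 2.64 ± 0.361, edgeR adjusted p = 0.00193), and both flavonol groups lay above the model libraries, at 4.16, 6.63 and 7.05 CPM. Its relative Nr1d2 had 80.5, 70.3 and 81.4 CPM with quercetin and 19.2, 17.8 and 25 CPM with kaempferol (log2 fold change 1.90 ± 0.281, edgeR adjusted p = 0.0023).

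Ciart, whose product represses ARNTL and CLOCK, had 11.7, 24.6 and 7.14 CPM with quercetin and 0.277, 0.446 and 0.511 CPM with kaempferol (log2 fold change 5.12 ± 0.644, edgeR adjusted p = 0.000778). Another E-box repressor, Bhlhe41, had 7, 5.38 and 8.37 CPM with quercetin and 0.609, 0.637 and 0.511 CPM with kaempferol (log2 fold change 3.55 ± 0.364, edgeR adjusted p = 4.82e-05). Bhlhe40, its close relative, was higher at 1.77 ± 0.367 (edgeR adjusted p = 0.0194), a call lost without quercetin library 2 or 5 or kaempferol library 3 (0.0556 to 0.0795).

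The cryptochromes moved in opposite directions. Cry1 had 4.11, 7.38 and 8.86 CPM with quercetin and 22.9, 25.6 and 29.8 CPM with kaempferol, both below the model at 52, 44.5 and 48 CPM (log2 fold change -1.95 ± 0.228, edgeR adjusted p = 0.000249). Cry2 had 40.2, 39.9 and 39.4 CPM with quercetin and 18.5, 19.5 and 24.9 CPM with kaempferol (log2 fold change 0.92 ± 0.135, edgeR adjusted p = 0.000988). Members of the core list that did not pass include Per1, the kinase genes Csnk1d (-0.16 ± 0.102, edgeR adjusted p = 0.377) and Csnk1e (0.09 ± 0.213, 0.838) and the receptor gene Rora (-0.04 ± 0.125, 0.893).

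Among the output genes, Dbp (chromosome 7, 45705100 to 45710203), which encodes a D-box activator, had 141, 163 and 126 CPM with quercetin, against 1.49, 1.27 and 1.99 CPM with kaempferol and 2.2, 2.79 and 3.03 CPM in the model. This was the highest fold change of any named gene, at 6.48 ± 0.495 on the log2 scale (edgeR adjusted p = 4.82e-05). Its relative Tef had 227, 247 and 169 CPM with quercetin and 28.9, 34.8 and 41.2 CPM with kaempferol (log2 fold change 2.62 ± 0.255, edgeR adjusted p = 8.08e-05). The third member of the family, Hlf, was higher by only 0.59 ± 0.139 (edgeR adjusted p = 0.0213) and did not pass without quercetin library 5 or kaempferol library 3 or 5 (0.0688 to 0.105).

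Nfil3, which encodes a repressor of the same D-boxes, had 23.5, 15.8 and 22.9 CPM with quercetin and 59.4, 55.8 and 54.3 CPM with kaempferol (log2 fold change -1.45 ± 0.197, edgeR adjusted p = 0.000835). Wee1, the gene of a kinase that holds back entry into mitosis, had 7.11, 13.8 and 7.82 CPM with quercetin and 2.1, 2.1 and 1.93 CPM with kaempferol (log2 fold change 2.23 ± 0.345, edgeR adjusted p = 0.00171). Cdkn1a, which encodes the cell cycle inhibitor p21, had 2.83, 1.22 and 1.11 CPM with quercetin and 15.8, 15 and 20.9 CPM with kaempferol. The model lay between the flavonols for Cdkn1a, at 8.08, 9.07 and 11.3 CPM (log2 fold change of quercetin over kaempferol -3.31 ± 0.324, edgeR adjusted p = 7.1e-05).

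The tetraspanin gene Tspan4 was higher (0.74 ± 0.152, edgeR adjusted p = 0.00966), and the gene of the transcription elongation factor Leo1 was lower (-0.76 ± 0.149, edgeR adjusted p = 0.00746). Calls for 3 other output genes depended on single libraries. Rgs16, which encodes a regulator of G protein signalling, had 12.1, 83 and 14 CPM with quercetin and 1.44, 1.21 and 2.1 CPM with kaempferol, so that quercetin library 5 stood apart from the other two (log2 fold change 4.51 ± 0.995, edgeR adjusted p = 0.0283). It did not pass without quercetin library 5 (0.0627) or without kaempferol library 3, 5 or 8 (0.0706 to 0.113). Usp2, which encodes a deubiquitinase, passed at 2.87 ± 0.616 (edgeR adjusted p = 0.0248) and not without quercetin library 5 or kaempferol library 3 or 5 (0.0641 to 0.0995). The vasopressin receptor gene Avpr1a was lower at -1.03 ± 0.231 (edgeR adjusted p = 0.0211) and did not pass without quercetin library 2 or 5 or kaempferol library 8 (0.0694 to 0.0894).

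The output genes that did not pass were Noct (3.38 ± 0.876, edgeR adjusted p = 0.0559), the heme synthesis gene Alas1 (1.84 ± 0.685, 0.15), the glycogen-targeting phosphatase subunit gene Ppp1r3c (-1.15 ± 0.31, 0.0573) and the transferrin receptor gene Tfrc (0.19 ± 0.358, 0.802). Noct passed without quercetin library 8 (0.0291) and Ppp1r3c without kaempferol library 5 (0.0199). The cold-inducible RNA-binding protein gene Rbm3, which varies with body temperature, had 55.3, 46.1 and 40.1 CPM with quercetin and 26.8, 26.2 and 27.2 CPM with kaempferol (log2 fold change 0.82 ± 0.109, edgeR adjusted p = 0.000499). It was the only member that passed in a list of 4 cold-inducible genes (25%, against 4.83% of all genes).

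**Figure D2:**
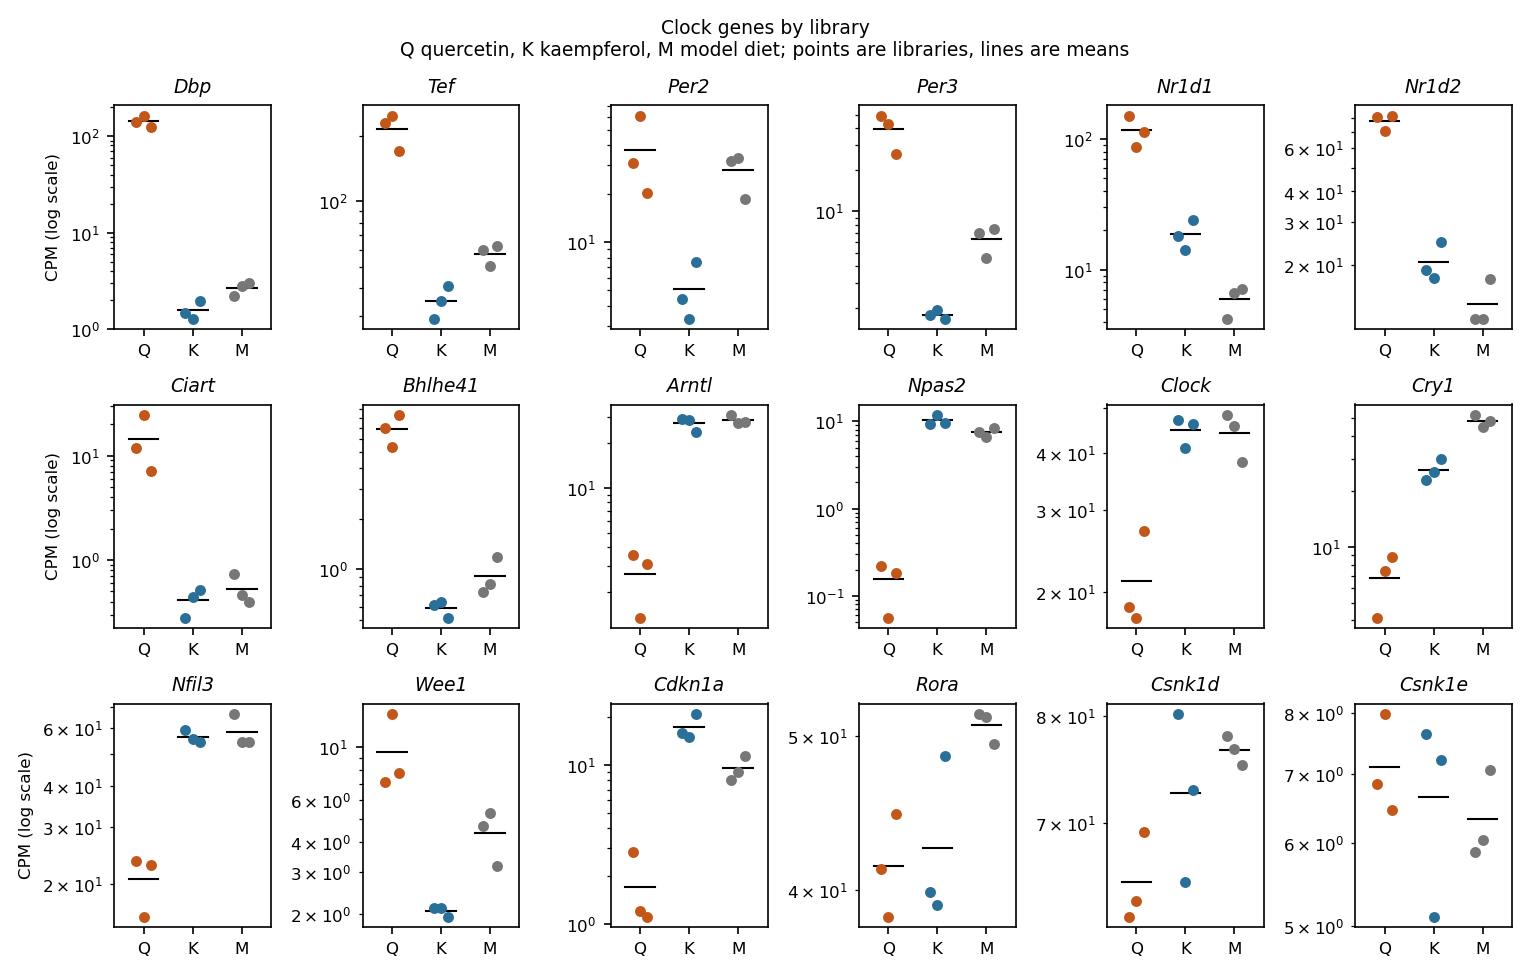
Each panel shows CPM of 1 clock gene on its own log axis in the 3 quercetin (Q), 3 kaempferol (K) and 3 model (M) libraries, with points for libraries and lines for group means. Arntl, Npas2, Clock, Cry1, Nfil3 and Cdkn1a were lower with quercetin than with kaempferol, Rora, Csnk1d and Csnk1e overlapped, and the other 9 genes were higher.

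Set against the model, Arntl was at -3.43 in quercetin over model and at -0.08 in kaempferol over model, and Dbp at 5.74 and -0.74. Of the 5 genes that passed in kaempferol over model, Srebf1 was at -1.11, the acetyltransferase family gene Nat8f6 at -2.21 and the acute phase gene Saa3 at 1.71. Nat8f6 was also lower in quercetin over model, at -2.50. Its mean was 0.569 CPM with quercetin, 0.699 CPM with kaempferol and 3.27 CPM in the model.

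Of 20 genes of flavonol conjugation and export 1 was higher with quercetin and 0 were lower, a share of 5% that is near the 4.83% of all genes, and the median log2 fold change was -0.02, as over all genes. The one that passed, the sulfotransferase gene Sult1c2, was low in both groups, at 5.78, 4.05 and 4.12 CPM with quercetin and 1.55, 1.66 and 1.42 CPM with kaempferol (log2 fold change 1.59 ± 0.244, edgeR adjusted p = 0.00147).

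For the bilirubin and flavonol glucuronosyltransferase gene Ugt1a1 the difference was 0.28 (95% interval -0.03 to 0.59), and for the phenol sulfotransferase gene Sult1a1 it was 0.45 (-0.03 to 0.93), with edgeR adjusted p-values of 0.272 and 0.253. Abcg2, the gene of an efflux pump for conjugates, had 61.5, 71.6 and 98.2 CPM with quercetin and 128, 135 and 79 CPM with kaempferol (log2 fold change -0.56 ± 0.191, 95% interval -0.97 to -0.16, edgeR adjusted p = 0.103). Library 8 of each flavonol lay nearest to the other group, and Abcg2 passed without quercetin library 8 (0.0312) or kaempferol library 8 (0.0149).

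Targets of xenobiotic receptors are read against the same 4.83%. Of 8 aryl hydrocarbon receptor genes 0 passed by edgeR, with 1 at an unadjusted p under 0.05 and 0 by DESeq2. Cyp1a1 differed by 0.46 (95% interval -0.15 to 1.07) and Cyp1a2 by -0.14 (-0.49 to 0.20). Of 24 genes of NRF2 and antioxidant defence 0 passed by edgeR, with 5 higher and 2 lower at an unadjusted p under 0.05 and 1 lower by DESeq2, and the quinone reductase gene Nqo1 differed by 0.32 (95% interval -0.17 to 0.81). With intervals of this width the data do not show that the flavonols act alike on these genes.

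In a list of 13 genes of the receptors CAR and PXR, 1 was higher (7.69%, against 4.83% of all genes) and 0 were lower. It was Cyp2a5, a cytochrome P450 gene, at 571, 973 and 515 CPM with quercetin and 209, 215 and 245 CPM with kaempferol (log2 fold change 1.62 ± 0.363, edgeR adjusted p = 0.0263). It did not pass without quercetin library 5 or any one of the kaempferol libraries (0.066 to 0.104), and close relatives in the gene family make its counts uncertain in part.

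Part of the genes of lipid synthesis were higher with quercetin, and 0 were lower. Of 20 genes of fatty acid and triglyceride synthesis 6 were higher and 0 were lower, with a median log2 fold change of 0.62 and 18 of 20 above 0. Leaving out 1 library gave 4 to 7 higher. Of 25 genes of cholesterol synthesis and uptake, 10 were higher and 0 were lower, with a median of 0.66 and 24 of 25 above 0, and leaving out 1 library gave 6 to 9 (6 without quercetin library 2 or kaempferol library 5 or 8). Over all genes 2.45% were higher and 47.8% were above 0.

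Srebf1 (chromosome 11, 60199084 to 60224186) encodes SREBP-1, the transcription factor that drives fatty acid synthesis after feeding. It had 633, 501 and 499 CPM with quercetin, against 196, 152 and 180 CPM with kaempferol and 401, 336 and 402 CPM in the model. The flavonol groups lay on opposite sides of the model, and their difference was 1.63 ± 0.169 on the log2 scale (edgeR adjusted p = 5.57e-05). Against the model, quercetin was at 0.52 (edgeR adjusted p = 0.066) and kaempferol at -1.11 (0.022).

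Fasn, the gene of fatty acid synthase, had 517, 566 and 382 CPM with quercetin, against 158, 84.4 and 150 CPM with kaempferol and 348, 509 and 264 CPM in the model. The kaempferol libraries were the low ones (log2 fold change 1.90 ± 0.387, edgeR adjusted p = 0.0175), and the call was lost narrowly without quercetin library 2 or 5 or kaempferol library 8 (0.0517 to 0.0596). Thrsp, which encodes a lipogenic protein of liver and fat, had 236, 365 and 318 CPM with quercetin and 63.9, 62.6 and 44.8 CPM with kaempferol, with the model at 194, 328 and 257 CPM (log2 fold change 2.42 ± 0.398, edgeR adjusted p = 0.00591).

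Mid1ip1, whose product acts with that of Thrsp on acetyl-CoA carboxylase, had 110, 101 and 84.8 CPM with quercetin and 22.5, 20.1 and 36.5 CPM with kaempferol (log2 fold change 1.91 ± 0.302, edgeR adjusted p = 0.00414). Gpam, the gene of the acyltransferase that starts glycerolipid synthesis, had 197, 165 and 215 CPM with quercetin and 113, 109 and 123 CPM with kaempferol (log2 fold change 0.74 ± 0.138, edgeR adjusted p = 0.00548). For the 4 genes Srebf1, Thrsp, Mid1ip1 and Gpam the groups did not overlap, and these calls held in every fit that left out 1 of the 6 libraries.

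In the sterol list, Fdft1, the gene of squalene synthase, had 60.1, 56.2 and 74.3 CPM with quercetin, against 25.3, 31.1 and 28 CPM with kaempferol and 42.5, 45.2 and 33.3 CPM in the model (log2 fold change 1.17 ± 0.186, edgeR adjusted p = 0.00211). Stard4, which encodes a carrier of sterols in the cytosol, had 77.6, 63.1 and 91.2 CPM with quercetin and 29.2, 33.9 and 42.1 CPM with kaempferol (log2 fold change 1.14 ± 0.2, edgeR adjusted p = 0.00488). Both genes had higher levels in every quercetin library than in any kaempferol library. Sqle, the gene of squalene epoxidase, was near 1 to 5 CPM in 5 of the 6 libraries and at 0.191 CPM in kaempferol library 5, and did not pass (1.55 ± 0.849, edgeR adjusted p = 0.32).

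Of 17 lipid droplet genes 1 was lower and 0 were higher (5.88%, against 4.83% of all genes), with a median log2 fold change of -0.30. Between 1 and 3 were lower when 1 library was left out, with 3 without quercetin library 5 and 2 without kaempferol library 5. It was Plin2, the gene of a coat protein of lipid droplets, at 248, 252 and 382 CPM with quercetin, against 655, 731 and 441 CPM with kaempferol and 532, 474 and 499 CPM in the model. The groups did not overlap, and library 8 of each flavonol lay nearest to the other group (log2 fold change -1.05 ± 0.174, edgeR adjusted p = 0.00231).

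Of 28 fatty acid oxidation genes 2 were higher and 1 was lower (10.7%, against 4.83% of all genes), and the median was -0.10. Pdk4, which encodes the kinase that turns off pyruvate dehydrogenase in fasting, had 2.56, 1.05 and 1.42 CPM with quercetin and 8.36, 8.53 and 6.7 CPM with kaempferol (log2 fold change -2.22 ± 0.4, edgeR adjusted p = 0.00609). The acyl-CoA thioesterase genes Acot3 (2.92 ± 0.76, edgeR adjusted p = 0.0491) and Acot4 (0.77 ± 0.189, 0.0262) were higher, but close copies in the family make their counts uncertain, and both failed in every fit that left out 1 library except that without quercetin library 8. The gene of the rate-limiting carnitine palmitoyltransferase, Cpt1a, had 296, 322 and 263 CPM with quercetin and 365, 305 and 285 CPM with kaempferol (-0.12, 95% interval -0.37 to 0.13, edgeR adjusted p = 0.604).

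Of 21 genes of glucose and glycogen metabolism 2 were higher and 0 were lower (9.52%, against 4.83% of all genes), and the median was 0.03. Gys2, the gene of liver glycogen synthase, had 191, 267 and 209 CPM with quercetin, against 124, 136 and 116 CPM with kaempferol and 152, 150 and 153 CPM in the model, so the flavonols lay on either side of the model (log2 fold change 0.83 ± 0.134, edgeR adjusted p = 0.00196). Slc2a2, the gene of the glucose transporter GLUT2, was higher at 0.66 ± 0.162 (edgeR adjusted p = 0.027), a call lost without quercetin library 5 or 8 or kaempferol library 3 or 8 (0.0731 to 0.124).

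Of 16 genes of bile acid synthesis 2 were lower with quercetin and 0 were higher (12.5%, against 2.39% of all genes lower), with a median of -0.15. Cyp8b1 (chromosome 9, 121914356 to 121916305), the sterol hydroxylase needed for cholic acid, had 119, 253 and 168 CPM with quercetin, against 398, 533 and 379 CPM with kaempferol and 532, 460 and 512 CPM in the model. The groups did not overlap, and the kaempferol libraries spanned the range of the model (log2 fold change -1.28 ± 0.228, edgeR adjusted p = 0.00556). Cyp7b1, of the alternative pathway, had 47.2, 120 and 180 CPM with quercetin and 322, 376 and 249 CPM with kaempferol (log2 fold change -1.44 ± 0.361, edgeR adjusted p = 0.0434), and it did not pass without quercetin library 5 or any one of the kaempferol libraries (0.0658 to 0.117).

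Cyp7a1, the rate-limiting enzyme of bile acid synthesis, had 190, 177 and 76.3 CPM with quercetin, against 41.7, 51.8 and 59.7 CPM with kaempferol and 152, 156 and 139 CPM in the model. The flavonol groups did not overlap, but the spread was wide and the difference did not pass (log2 fold change 1.53 ± 0.633, edgeR adjusted p = 0.188). Of 9 bile acid transport genes 1 was higher and 1 was lower (22.2%, against 4.83% of all genes). The uptake transporter gene Slco1a4 was higher, at 56.2, 42.8 and 45.2 CPM with quercetin and 15.4, 16.9 and 18.5 CPM with kaempferol (log2 fold change 1.50 ± 0.266, edgeR adjusted p = 0.00634). The phospholipid exporter gene Abcb4 was lower (-0.52 ± 0.122, edgeR adjusted p = 0.0211), a call lost without quercetin library 2 or kaempferol library 3 (0.0824 and 0.0983). Of 15 sterol efflux genes 0 passed by edgeR, with 4 higher and 2 lower at an unadjusted p under 0.05 and 3 higher by DESeq2.

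**Figure D3:**
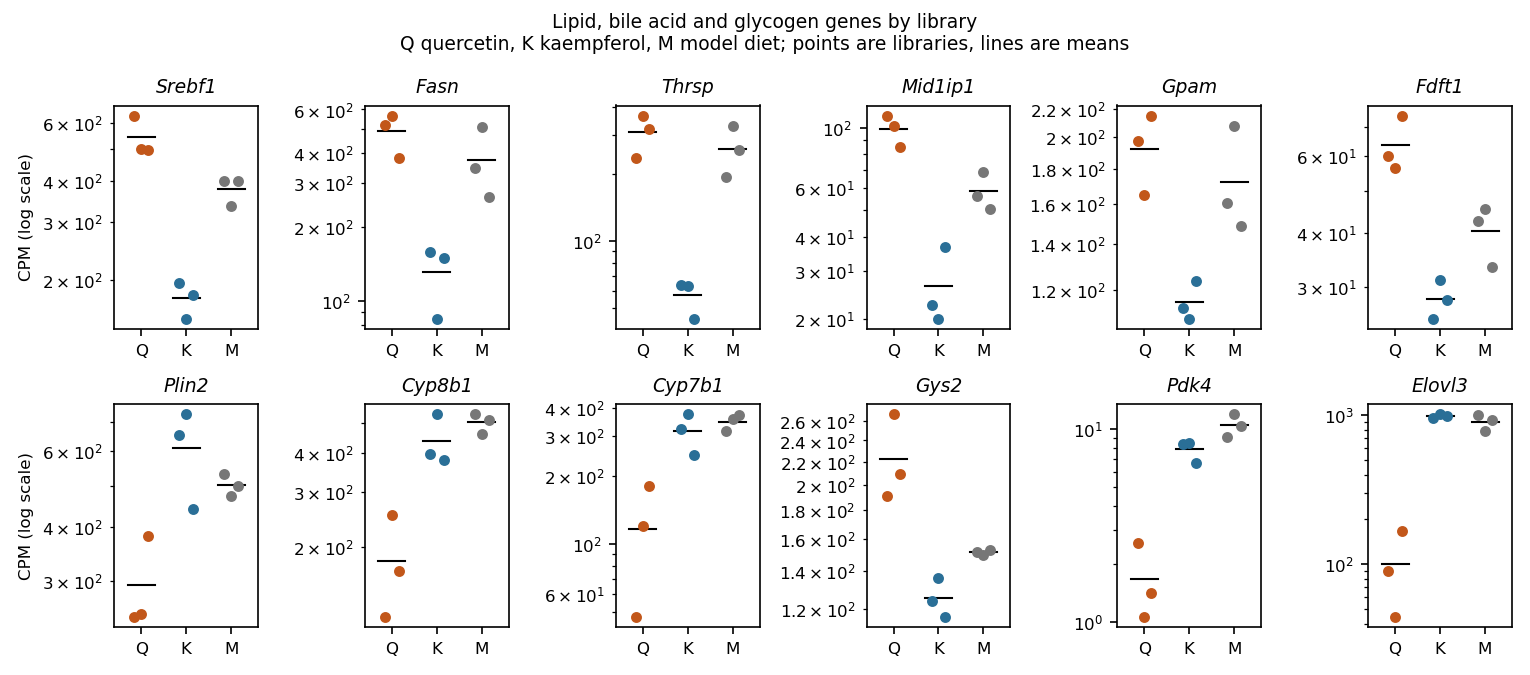
Each panel shows CPM of 1 gene of lipid, bile acid or glycogen metabolism on its own log axis in the 3 quercetin (Q), 3 kaempferol (K) and 3 model (M) libraries, with points for libraries and lines for group means. Srebf1, Fasn, Thrsp, Mid1ip1, Gpam, Fdft1 and Gys2 were higher with quercetin than with kaempferol. Plin2, Cyp8b1, Cyp7b1, Pdk4 and Elovl3 were lower, and the flavonols did not overlap in any panel. All these genes passed, and 609 of the 612 genes that passed had no overlap, so its absence here adds little.

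Elovl3, a fatty acid elongase gene that in mice is male-biased and follows the clock, was the member of the sex-biased lists with the largest change. It had 90.1, 44.1 and 166 CPM with quercetin, against 951, 1017 and 993 CPM with kaempferol and 997, 787 and 924 CPM in the model (log2 fold change -3.30 ± 0.436, edgeR adjusted p = 0.00166). The kaempferol libraries lay at the model level and the quercetin libraries far below it. Of 17 male-biased genes 3 were lower with quercetin (Elovl3, Cyp7b1 and the complement gene C6) and 0 were higher (17.6%, against 4.83% of all genes). Their median was -0.46, and leaving out 1 library gave 1 to 6 lower (6 without quercetin library 8, 1 without quercetin library 5 or kaempferol library 3). C6 was at -0.67 ± 0.148 (edgeR adjusted p = 0.016) and did not pass without quercetin library 2 or 5 or kaempferol library 3 (0.0555 to 0.0707). On mean log2 CPM centred over the 15 libraries the male-biased list was at -1.21, -0.84 and -0.01 in quercetin libraries 2, 5 and 8 and at 0.00, 0.47 and 0.08 in kaempferol libraries 3, 5 and 8, so quercetin library 8 lay close to the kaempferol libraries. Of 7 female-biased genes 0 passed by edgeR, with 4 higher at an unadjusted p under 0.05 and 2 by DESeq2. Their median was 1.45, with 6 of 7 above 0, and it was 0.66 to 1.86 when 1 library was left out, with 3 higher without quercetin library 8. The labels do not give the sex of the mice, and its part in these values was not tested.

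The transcription factor genes Stat5a and Stat5b, which carry growth hormone signals to many sex-biased genes, were both lower. Stat5a had 12, 13.2 and 11.8 CPM with quercetin and 24.4, 21.9 and 24 CPM with kaempferol (log2 fold change -0.93 ± 0.142, edgeR adjusted p = 0.00147). Stat5b was at -0.70 ± 0.15 (edgeR adjusted p = 0.0137) and did not pass without quercetin library 2 or 5 (0.0506 and 0.0649). They were the only 2 of 14 growth hormone and IGF1 genes that passed (14.3%, against 4.83% of all genes).

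Other genes among the lowest with quercetin were of mixed function. Clpx (chromosome 9, 65294251 to 65330658), the gene of the unfolding subunit of a mitochondrial protease, had 75.6, 49.9 and 92.6 CPM with quercetin and 394, 430 and 313 CPM with kaempferol (log2 fold change -2.38 ± 0.198, edgeR adjusted p = 1.32e-05). Lrfn3, which encodes an adhesion protein known from synapses, had 3.72, 2.05 and 3.94 CPM with quercetin and 17.3, 18.3 and 16.1 CPM with kaempferol (log2 fold change -2.41 ± 0.192, edgeR adjusted p = 4.73e-06). Both were named by a rule that takes only genes without overlap between the flavonols.

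Asap2, of an Arf GTPase-activating protein, was at -2.69 ± 0.334 (edgeR adjusted p = 0.00074), and Loxl4, of a lysyl oxidase that crosslinks matrix, was at -2.85 ± 0.435 (0.00191). Moxd1, which encodes a monooxygenase-like protein, had 0, 4 and 6 counts with quercetin and 56, 114 and 82 counts with kaempferol, both below the model at 453, 369 and 915 counts (log2 fold change of quercetin over kaempferol -4.64 ± 0.996, edgeR adjusted p = 0.0238). It did not pass without quercetin library 2 or 5 or kaempferol library 8 (0.0569 to 0.0873).

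Of 25 interferon genes 3 were lower with quercetin and 0 were higher (12%, against 2.39% of all genes lower), with a median of -0.19. Cmpk2, of a mitochondrial nucleotide kinase, had 3.84, 2.83 and 4.55 CPM with quercetin and 10.5, 10.3 and 12.5 CPM with kaempferol (log2 fold change -1.57 ± 0.178, edgeR adjusted p = 8.27e-05). The antiviral gene Rsad2 had 3.17, 2.77 and 2.65 CPM with quercetin and 6.09, 7.32 and 10.7 CPM with kaempferol (log2 fold change -1.49 ± 0.284, edgeR adjusted p = 0.00636). Irgm1 was lower at -0.45 ± 0.123 (edgeR adjusted p = 0.0449), a call lost without quercetin library 2 or 5 or kaempferol library 3 or 8 (0.118 to 0.16). Of 29 acute phase genes 1 passed by edgeR (3.45%, against 4.83% of all genes) and 7 by DESeq2 (6 lower, 1 higher). It was the fibrinogen gene Fga, lower at -0.52 ± 0.133 (edgeR adjusted p = 0.0329) and not without quercetin library 2 or 5 or kaempferol library 3 (0.0894 to 0.169).

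Markers of several other cell types had log2 fold changes below 0, and in bulk tissue fewer cells of a type and less RNA per cell cannot be told apart. All 14 Kupffer cell and macrophage markers were below 0 (median -0.54) and 1 passed (7.14%, against 4.83% of all genes). It was the mannose receptor gene Mrc1 (-0.63 ± 0.17, edgeR adjusted p = 0.044), which passed in none of the fits that left out 1 library (0.0521 to 0.16). At an unadjusted p under 0.05, 8 of the 14 markers were lower, and by DESeq2 4 were lower. For 11 of the 14 the groups did not overlap, against 23.5% of all genes. The summed level of the 14 markers was 420 to 481 CPM with quercetin, 551 to 1153 CPM with kaempferol and 321 to 460 CPM in the model, with kaempferol library 8 the highest. Without that library the median was -0.29.

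All 12 endothelial markers were below 0 (median -0.53) and 4 were lower (33.3%, against 4.83% of all genes), namely Pecam1, Cdh5, Vwf and Tek. Pecam1, of an adhesion molecule at endothelial junctions, had 9.78, 7.32 and 11 CPM with quercetin and 16.9, 17.4 and 22.1 CPM with kaempferol (log2 fold change -1.01 ± 0.213, edgeR adjusted p = 0.013). Each of the 4 lost its call in at least 1 fit without a library, Pecam1 without quercetin library 5 or kaempferol library 8 (0.0608 and 0.0521), and between 0 and 4 passed in such fits (0 without quercetin library 5 or kaempferol library 8, 1 without quercetin library 8). The summed level of the list was 203 to 285 CPM with quercetin, 318 to 410 CPM with kaempferol and 250 to 321 CPM in the model. Cdh5 (-0.79 ± 0.193), Vwf (-0.78 ± 0.184) and Tek (-0.82 ± 0.222) did not pass without quercetin library 5 or 8 or kaempferol library 8, Vwf also not without quercetin library 2, and Tek also not without kaempferol library 3 or 5 (0.0504 to 0.158). All 10 stellate markers were below 0 (median -0.54), and 0 passed by edgeR, with 3 lower at an unadjusted p under 0.05 and 1 by DESeq2. For 0 of the 10 did the groups separate, against 23.5% of all genes. The summed level was 138 to 226 CPM with quercetin and 145 to 296 CPM with kaempferol, the lowest of the kaempferol values in library 5. The median was -0.22 without kaempferol library 3 and -0.96 without kaempferol library 5, where 3 were lower. Of the 8 T and NK cell, 5 B cell, 5 neutrophil, 6 cholangiocyte and 5 erythroid markers tested 0 passed by edgeR, with 2, 4, 2, 1 and 1 at an unadjusted p under 0.05 and 1, 2, 0, 0 and 0 by DESeq2. Median log2 fold changes were -0.18 for T and NK cell, -1.22 for B cell, 0.48 for neutrophil, 0.67 for cholangiocyte and -0.88 for erythroid markers, and all 5 erythroid and 4 of 5 B cell markers were below 0. The part that cell composition had in the metabolic, interferon and clock values was not tested.

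All 30 ribosomal protein genes were above 0 with quercetin (median 0.31) and 7 were higher (23.3%, against 4.83% of all genes). However, 0 passed without quercetin library 8 or kaempferol library 3 or 8, 1 without quercetin library 5 and 11 without kaempferol library 5. Rps18 had 236, 270 and 291 CPM with quercetin and 175, 214 and 179 CPM with kaempferol (log2 fold change 0.49 ± 0.11, edgeR adjusted p = 0.0175), and it did not pass without quercetin library 5 or 8 or kaempferol library 3 or 8 (0.0558 to 0.0885). Their summed level was 6399 to 7728 CPM with quercetin, 5292 to 6212 CPM with kaempferol and 5349 to 5481 CPM in the model. Ribosomal protein genes have near-identical copies, so single members are uncertain.

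**Figure D4:**
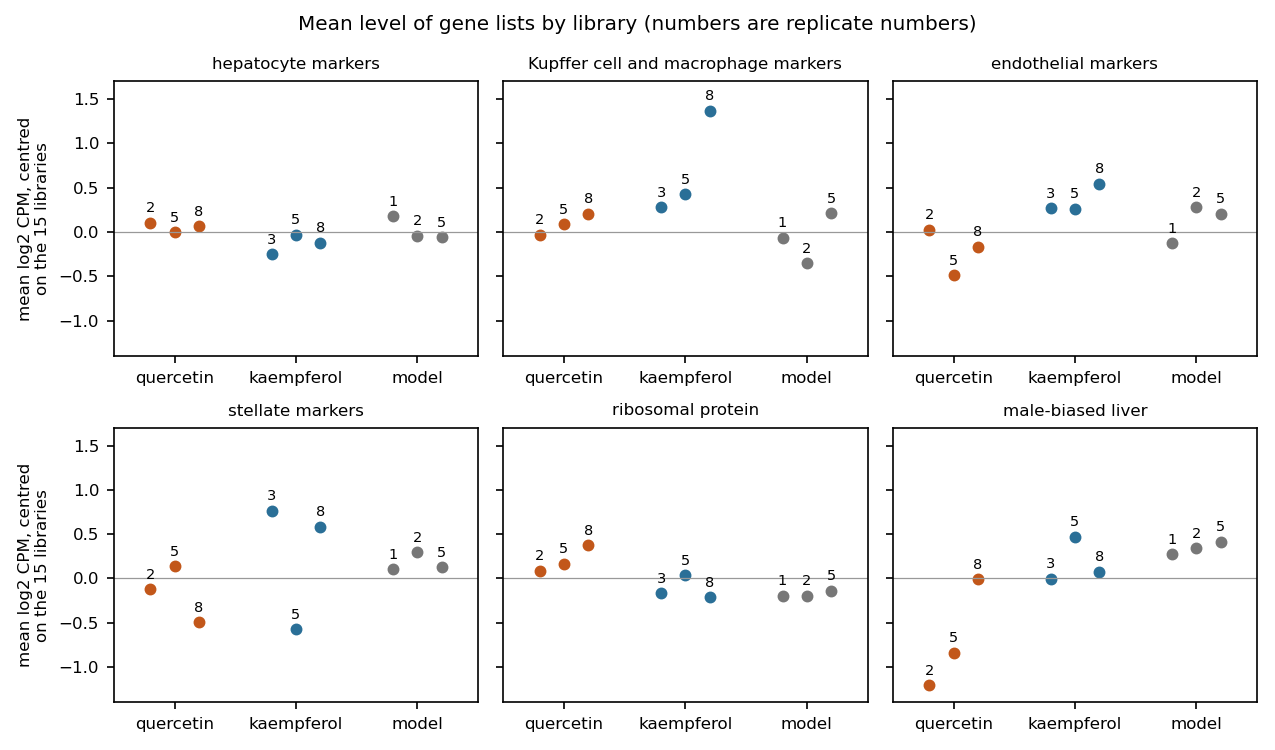
Each panel shows, for 1 gene list, the mean log2 CPM of its members, centred on the 15 libraries, in the quercetin, kaempferol and model libraries, with replicate numbers beside the points. Kupffer cell and macrophage markers were highest in kaempferol library 8 (1.37), the male-biased list was lowest in quercetin libraries 2 and 5 (-1.21 and -0.84), and ribosomal protein genes were at 0.09 to 0.37 with quercetin and -0.21 to 0.04 with kaempferol.

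Of 17 integrated stress response genes 3 were higher with quercetin (17.6%, against 2.45% of all genes higher), and 1 or 2 when a library was left out (1 without quercetin library 2 or kaempferol library 3). They were Vldlr, a lipoprotein receptor gene at 5.39, 1.89 and 1.66 CPM with quercetin and 0.553, 0.382 and 0.852 CPM with kaempferol (edgeR adjusted p = 0.00942), the pseudokinase gene Trib3 (1.28 ± 0.281, 0.0158) and the translation repressor gene Eif4ebp1 (0.38 ± 0.103, 0.0409). Each lost its call without quercetin library 2 (Vldlr at 0.0524, Trib3 at 0.073) or, for Eif4ebp1, without quercetin library 5 or 8 or any one of the kaempferol libraries (0.0517 to 0.15), and Trib3 also without kaempferol library 3 (0.0752). By edgeR 0 of 16 endoplasmic reticulum stress genes passed (1 higher at an unadjusted p under 0.05, 0 by DESeq2), and so did 0 of 14 heat shock genes (2 lower unadjusted, 1 lower by DESeq2) and 0 of 14 immediate early genes (1 higher and 1 lower unadjusted, 1 lower by DESeq2). Of 30 respiratory chain genes 0 passed (3 higher unadjusted, 0 by DESeq2), as did 0 of 16 antigen presentation genes (0 unadjusted, 0 by DESeq2) and 0 of 25 nuclear receptor genes (4 higher and 3 lower unadjusted, 2 higher and 1 lower by DESeq2).

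Of 20 genes of the urea cycle and amino acid catabolism 1 was higher (5%, against 4.83% of all genes), the serine dehydratase gene Sds, at 519, 198 and 195 CPM with quercetin and 94.6, 95 and 100 CPM with kaempferol. The groups did not overlap, but quercetin library 2 stood well above the other two (log2 fold change 1.65 ± 0.377, edgeR adjusted p = 0.029), and the call was lost without any one of the kaempferol libraries (0.0688 to 0.105). In the cell cycle list of 18 genes, 1 was higher and 1 was lower (11.1%, against 4.83% of all genes). Cdkn1a was lower, as above, and the growth arrest gene Gadd45a was higher, at 10.8, 10.3 and 12.3 CPM with quercetin and 2.49, 4.58 and 3.52 CPM with kaempferol (log2 fold change 1.66 ± 0.31, edgeR adjusted p = 0.00625). The other 16 members, among them the proliferation genes Mki67 (-0.33 ± 0.347) and Pcna (0.13 ± 0.119), did not pass.

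**Figure D5:**
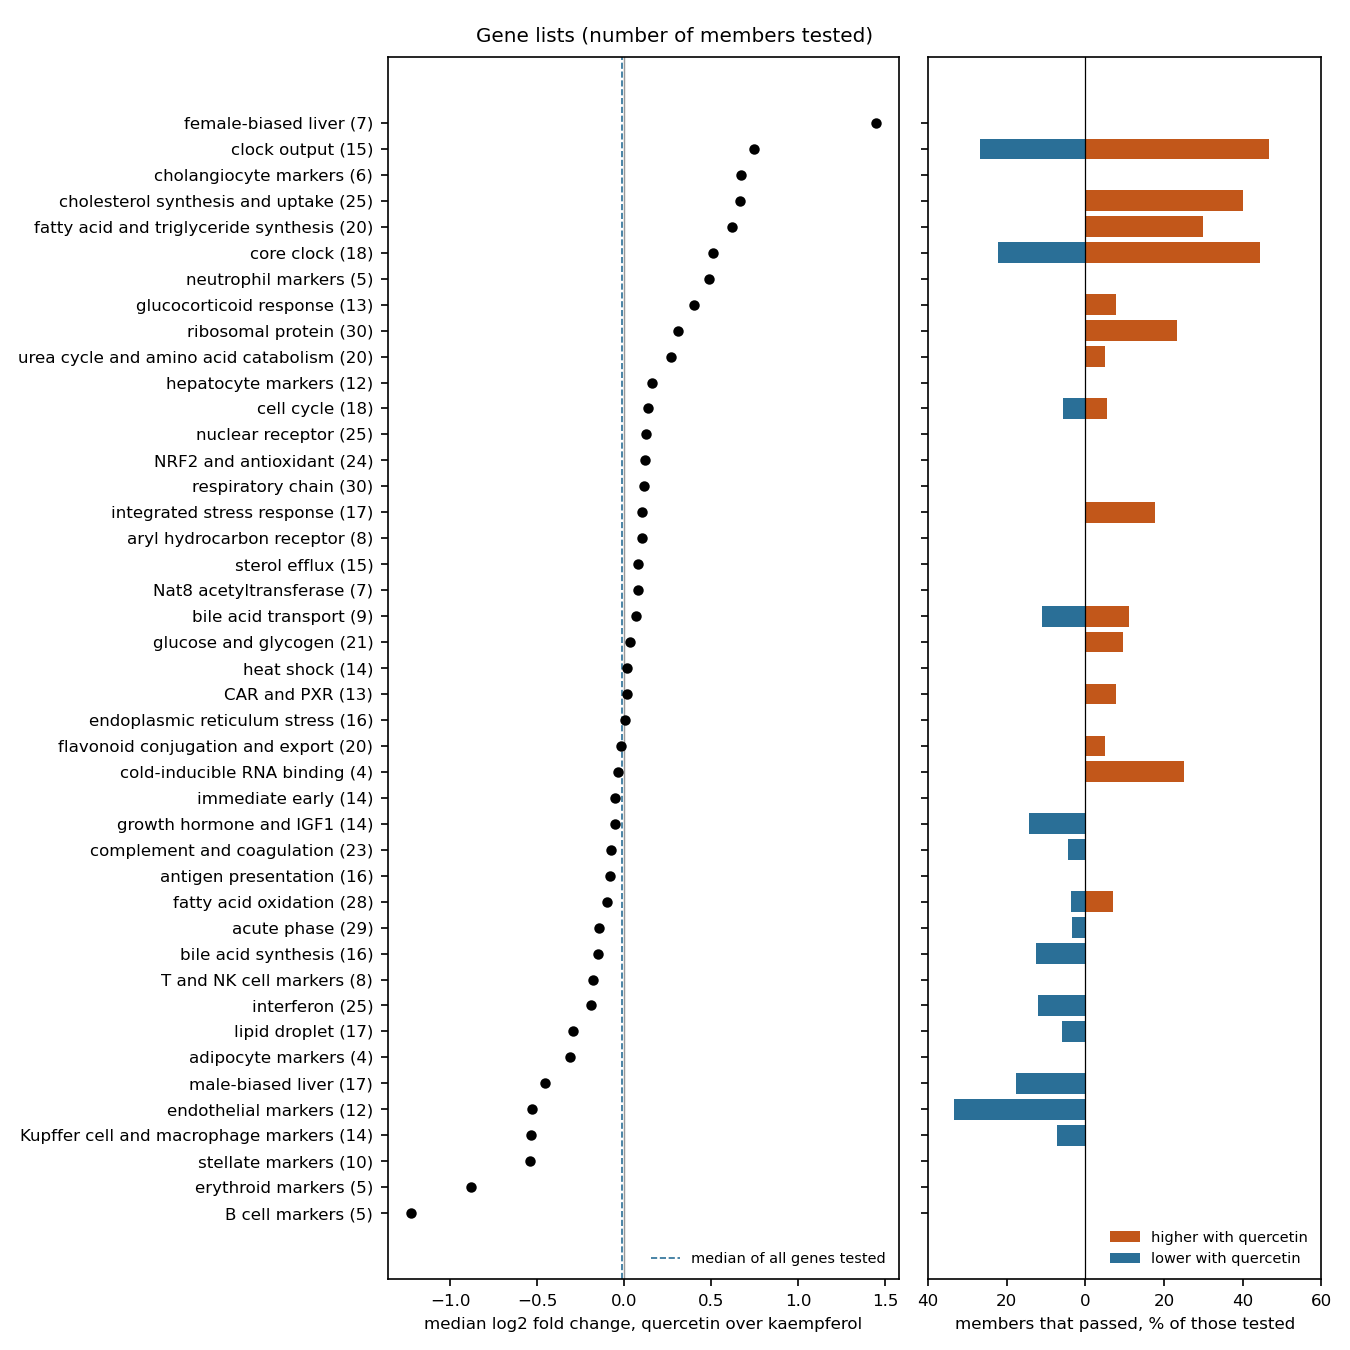
The left panel shows the median log2 fold change, quercetin over kaempferol, of each gene list with the number of members tested in brackets, beside the median of all genes tested (dashed line, -0.02). The right panel shows the share of members that passed, higher with quercetin to the right and lower to the left. The clock lists passed in both directions, and the lipid synthesis lists only in the higher direction.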

How the data were processed

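Per the submitters' processing notes, HISAT2 2.1.0, Bowtie2 2.3.4.3, DESeq2 1.4.5 and RSEM 1.3.1 were used on build GRCm38.p6, and which step each served is not given in the sources used here. The authors deposited expected counts, unscaled between libraries, for 16809 genes, and 5.37% of these values were not whole. The 30 columns of FPKM or TPM and 15 columns of averages stayed unused. Counts were rounded, filtered with filterByExpr and scaled with TMM. All 15 libraries entered 1 robust quasi-likelihood fit in edgeR 4.0.16 (R 4.3.3) with 10 residual degrees of freedom and 2-sided tests. The SE is the log2 fold change divided by the root of the F statistic, and 95% intervals follow from it. In simulated counts, the quercetin against kaempferol test recovered 71% of genes changed by 1 on the log2 scale and 92% of those changed by 2, with 10 false calls. Each gene was drawn independently around a common mean, so deviations that many genes of a library share were not simulated. Recovery and false calls in the real data may thus be different. The sources state no strand, and overlapping genes may share reads. There was 1 pair of flavonols to compare.

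Named genes were 13 fixed genes, the 10 highest and 10 lowest changes that passed without overlap at a group mean of at least 5 CPM (leaving out predicted genes), up to 4 passing members per direction of each of 43 lists, and all clock genes. Mki67 and Pcna were named after their values were seen. Members and lists were chosen with earlier results of these data known. Some genes the rule takes are not reported here. Promoter sequences are from RefSeq (GRCm38.p6).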

Additional observations from a re-analysis of the deposited data

How the results depend on the processing

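The 612 genes that passed between quercetin and kaempferol (310 higher, 302 lower) became 251 in a fit of the 6 libraries alone (128 and 123) and 983 with DESeq2 1.42.0 (507 and 476). Leaving out 1 library gave 285 to 706 in all, 115 to 302 higher and 160 to 404 lower, with the fewest without kaempferol library 3. RLE scaling (610), no filter on low counts (544) and a non-robust fit (630) stayed within 1.5 times. The cause of these differences was not tested, beyond the fewer libraries in some fits. Of 74 named genes that passed, 44 passed in every fit that left out 1 library, and 30 did not in at least 1 (highest adjusted p 0.0524 to 0.169). In none of the 12 alternatives did a named gene reverse that passed there or in the main fit. Changes of sign in genes that passed in neither were not counted. With the replicate number as a block the count was 185 (92 higher, 93 lower). Between quercetin and kaempferol only numbers 5 and 8 are shared, and these libraries deviated against each other (r = -0.238 and -0.217). The block also used numbers shared with the other groups of the series, where pairs of the same number had r of both signs. Nothing in the labels pairs libraries by number. Groups of 3 libraries limit what can pass, and low genes such as Npas2 and Moxd1 rest on few counts.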
